A study of Mus musculus with 23 samples.

Results

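The collagen genes were described as every symbol of the deposited count table that begins with Col, a number, the letter a and a number, which gave 44 of 48397 genes. The 23 libraries are polyA RNA of sorted cells from breast tumours of Met1-iRFP in mice of the FVB strain. Met-1 cells derive from a mammary tumour of an MMTV-PyMT mouse and here carry iRFP, a protein that fluoresces in the near infrared. Cancer cells were sorted as iRFP+ and cells of the tumour microenvironment (TME) as iRFP-, from exercised or sedentary mice. Sedentary cancer cells gave 8 libraries, exercised cancer cells 7, sedentary TME cells 4 and exercised TME cells 4. All groups share the tumour line and the strain, and the sources used here give neither the age of the mice nor the kind of exercise. The labels do not say whether each library is a separate mouse, so the p-values measure the spread between these libraries.

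Collagens are trimers wound from alpha chains, each chain from a gene of its own, and the chains that assemble together define a type. Fibrillar collagens (types I, II, III, V, XI, XXIV and XXVII) build the rope-like fibres of stroma, with types V and XI set inside the fibres of the others. Type IV forms the sheet of basement membranes, type VI forms beaded filaments around cells, and fibril-associated collagens sit on the surface of fibres. In tumours, types I and III are best known as products of fibroblasts, and Col4a1 and Col4a2 as the common type IV chains around vessels and epithelia.

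Of the 44 collagen genes, 43 had at least 1 count and Col19a1 had none in any library. A count of 0 allows up to 3 counts, which is 0.0770 to 0.281 CPM per library, for counting error only. Levels are CPM, the counts scaled to the library size with TMM factors. After the filter on low counts, 38 were tested between the sorts, 31 under exercise in cancer cells and 35 under exercise in TME cells. Another 5 genes were detected but not tested between the sorts: Col22a1 with 51 counts over all libraries, Col26a1 with 25, Col28a1 with 34, Col6a4 with 35 and Col6a6 with 82.

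The total count was 15924340 to 25563245 in cancer libraries and 16307545 to 37388479 in TME libraries. Mitochondrial genes took 42.25% of the counts in TME sedentary library 4 and 14.46% in TME sedentary library 6, while no other TME library exceeded 8.63% and no cancer library 3.90%. The summed level of 10 endothelial markers was 7.08 to 15.5 CPM in cancer libraries and 42.3 to 451 CPM in TME libraries, and that of 10 leukocyte markers was 22.7 to 120.3 against 348 to 2256 CPM. The 10 fibroblast markers summed to 629 to 937 CPM in cancer libraries and 765 to 1014 CPM in TME libraries. Most of that sum came from Pdgfra, Dpt and Dcn, which were abundant in both sorts, with means of 393 ± 32.9, 196 ± 41.8 and 197 ± 38.1 CPM (SD) in sedentary cancer cells. Their means in sedentary TME cells were 334 ± 47.3, 194 ± 25.2 and 229 ± 47.1 CPM. Lum, Pdpn, Mfap5 and Thy1 had means of 0.322 to 1.52 CPM in sedentary cancer cells and 4.42 to 14.9 CPM in sedentary TME cells. The remaining markers were closer, with Pi16 at 36.4 against 54.6, Fap at 2.74 against 3.98 and Islr at 2.46 against 6.21 CPM. The labelled cancer cells lacked most epithelial markers: medians in sedentary cancer cells were 0 for Krt7 and Krt19, 0.337 CPM for Krt8, 0.342 CPM for Cdh1 and 1.23 CPM for Epcam, while Krt18 (93.6 CPM) and Wfdc2 (318 CPM) were present. Both were also present in sedentary TME cells, with medians of 71.6 CPM for Krt18 and 389.9 CPM for Wfdc2. The medians there were 0.0480 CPM for Krt7, 0.208 for Krt19, 0.307 for Krt8 and 1.46 for Epcam. Cdh1 was higher in sedentary TME cells, at 2.28 to 3.18 CPM (median 3.07), against 0 to 1.68 CPM in sedentary cancer cells. The 10 epithelial markers summed to 275 to 539.9 CPM in cancer libraries and 229 to 523 CPM in TME libraries.

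Across both sorts the most abundant collagen transcripts were those of type VI. On a scale of CPM per kilobase (kb) of transcript, which allows levels of different genes to be compared, Col6a1 had a mean of 390.0 ± 70.1 in cancer libraries (SD, n = 15), and Col6a2, its assembly partner, had 188 ± 38.8. Col4a5, a type IV chain of specialised basement membranes, followed at 69.3 ± 11.7, Col16a1, a fibril-associated chain, at 67.1 ± 14.2, and Col6a3, the large chain of type VI, at 43.6 ± 8.39. Then came Col11a1 (36.5 ± 6.12), Col5a1 (30.5 ± 3.88), Col18a1 (15.4 ± 2.35), Col27a1 (12.3 ± 2.02) and Col8a1 (8.85 ± 1.80). Neighbours in this order from Col4a5 to Col16a1, Col6a3 to Col11a1 and Col11a1 to Col5a1 lay within 1 SD of each other.

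The chains of type I, the bulk collagen of connective tissue, were far down that order in cancer cells, at 3.59 ± 1.55 CPM per kb for Col1a1 and 1.72 ± 0.917 for Col1a2. In TME libraries Col6a1 and Col6a2 again led, and Col3a1, Col1a2 and Col1a1 stood in the fifth to seventh place, with 47.8, 47.0 and 45.7 CPM per kb, at about the level of Col6a3 (48.8). By merged exons of all isoforms, Col5a1 and Col11a1 changed places in cancer cells, and in TME cells Col1a1 stood 4th, Col3a1 8th and Col1a2 9th.

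**Figure D1:**
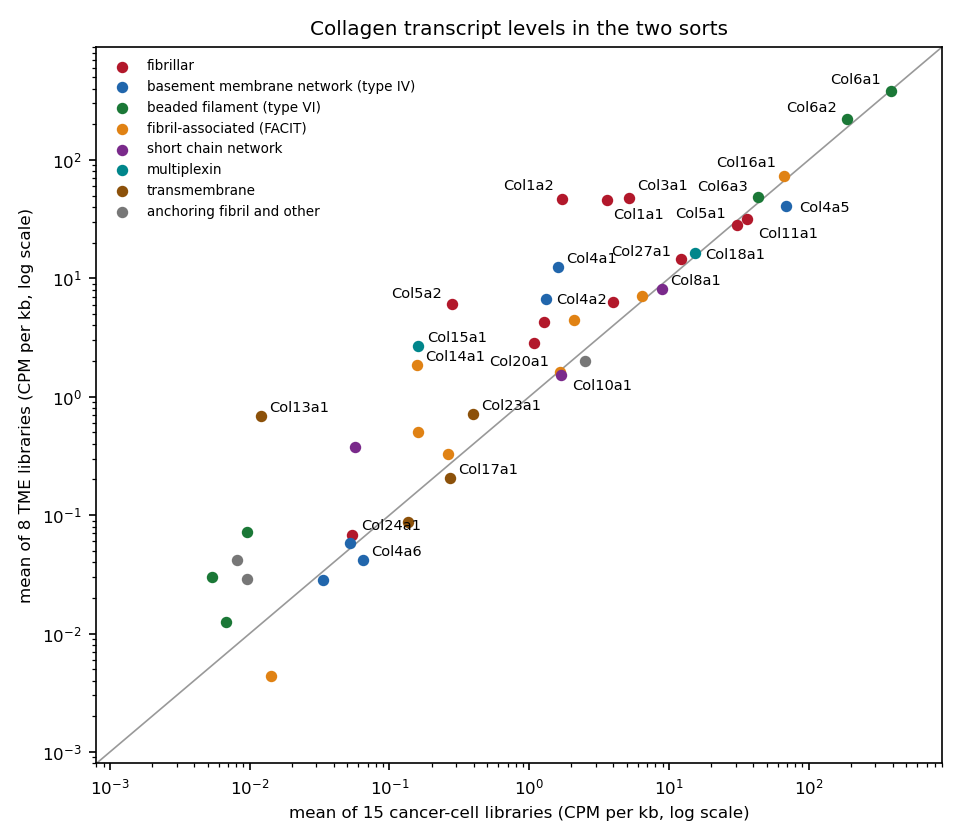
Mean level of the 43 detected collagen genes in the 15 cancer libraries (x axis) and the 8 TME libraries (y axis), both in CPM per kb on log scales, with 1 point a gene coloured by class and a line of equal levels. Col6a1, Col6a2 and Col16a1 lie close to the line at the top, while Col1a2, Col5a2, Col15a1 and Col13a1 lie far above it.

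The make-up of the collagen transcripts followed from these levels. Type VI made up 66.7 to 72.6% of the summed collagen CPM per kb in cancer libraries and 55.0 to 66.6% in TME libraries. Fibrillar chains made up 9.49 to 11.5% in sedentary and 9.28 to 12.3% in exercised cancer cells, and 16.9 to 30.1% and 16.1 to 27.9% in TME cells, so that no TME library overlapped a cancer library. Type IV took 6.75 to 9.41% in cancer libraries and 4.32 to 7.57% in TME libraries, which overlap. All collagen genes together took 0.385 to 0.656% of the scaled counts in cancer libraries and 0.392 to 0.649% in TME libraries.

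**Figure D2:**
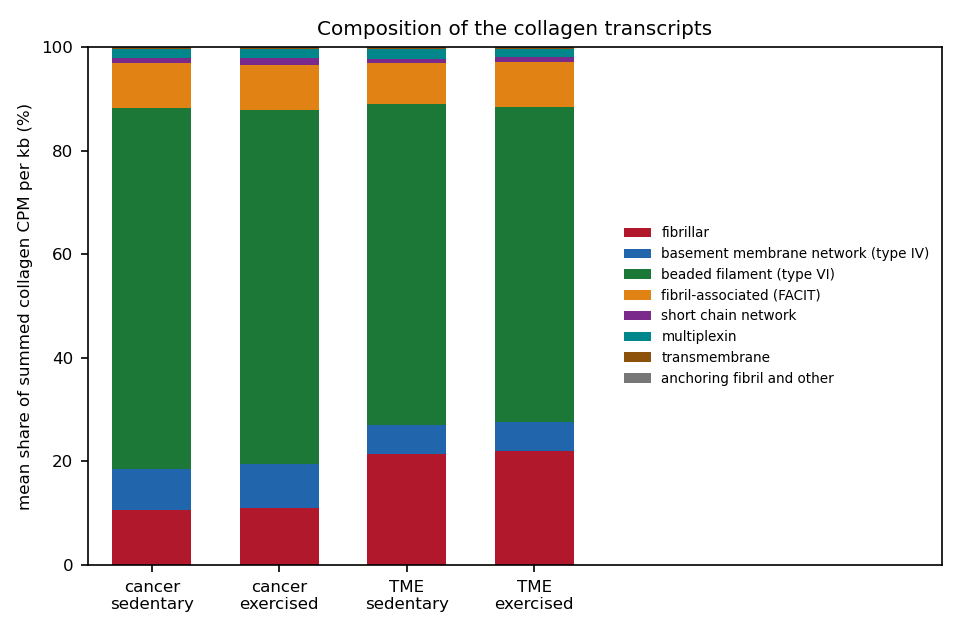
Mean share of each collagen class in the summed collagen level (CPM per kb, in percent) in the 4 groups, stacked to 100%. Type VI takes the largest part everywhere, and the fibrillar part is larger in both TME groups than in both cancer groups.

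Between the sorts, 18 of 38 tested collagen genes differed, with 17 higher in TME cells and 1, Col4a5, higher in cancer cells (edgeR's quasi-likelihood test, adjusted over all genes). Of all 17503 genes tested, 25.3% were higher and 27.3% lower in TME cells. The median difference, TME minus cancer, was 0.26 log2 over the tested collagens and -0.01 over all genes. In 7 collagens the TME libraries all lay above the cancer libraries (Col1a1, Col1a2, Col3a1, Col5a2, Col4a1, Col14a1 and Col15a1), which held for 5.19% of all genes tested. All 18 were also called when the sorts were compared within sedentary mice (40.8% of all genes called) or within exercised mice (36.9%). Both are contrasts in the same fit of all 23 libraries. In sorted bulk samples, more cells of a type and more RNA per cell cannot be told apart.

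Fibrillar collagens gave 7 of the 17, and none of the 11 was called lower in TME cells. Col1a1, the major chain of type I, was at 217, 189, 309 and 545 CPM in the sedentary TME libraries 4, 6, 9 and 10 and at 377, 82.1, 272 and 178 CPM in the exercised TME libraries 7, 8, 9 and 10. In cancer cells it ranged from 10.7 to 43.2 CPM when sedentary (median 21.9) and from 11.1 to 22.6 CPM when exercised (median 15.9). The ranges of the sorts did not overlap, and TME cells were higher by 3.69 ± 0.27 log2 (SE, adjusted p = 9.24e-10). Its partner Col1a2 was at 171, 165, 244 and 539 CPM in sedentary TME cells and at 387, 95.6, 282 and 129 CPM in exercised ones. The cancer libraries held 6.06 to 18.7 CPM of Col1a2 when sedentary and 2.82 to 16.2 CPM when exercised, so that it was higher in TME cells by 4.80 ± 0.35 log2 (adjusted p = 1.03e-09).

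Col3a1, the chain of type III that mixes with type I in soft tissue, was at 117, 156, 304 and 476 CPM in sedentary and 395, 144, 357 and 179 CPM in exercised TME cells. Cancer libraries lay between 15.4 and 47.7 CPM, and the difference was 3.23 ± 0.27 log2 (adjusted p = 5.35e-09). Col5a2, the second chain of type V, was at 27.0, 30.1, 44.9 and 63.7 CPM in sedentary and 49.7, 22.0, 55.5 and 27.2 CPM in exercised TME cells. It had 0.493 to 3.55 CPM in cancer libraries, a difference of 4.43 ± 0.30 log2 (adjusted p = 1.55e-10). TME sedentary library 10 was the highest in all 4 of these genes, and TME exercised library 8 was the lowest in Col1a1, Col1a2 and Col5a2.

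The chain that pairs with Col5a2 behaved otherwise. Col5a1, which is present in every form of type V, was at 214, 235, 293 and 277 CPM in sedentary and 249.9, 196, 217 and 229 CPM in exercised TME cells, against 218 to 347 CPM (median 247) in sedentary and 224 to 298 CPM (median 255) in exercised cancer cells. The ranges overlap, and the difference of -0.10 ± 0.08 log2 was not called (adjusted p = 0.278). Col11a1, a minor fibrillar chain that can combine with type V chains, had 235 to 339 CPM in sedentary and 228 to 409.7 CPM in exercised cancer cells. TME libraries held 197, 261, 233 and 233 CPM when sedentary and 225, 209.5, 215 and 369 CPM when exercised (-0.21 ± 0.10 log2, adjusted p = 0.0955). Col11a1 was called lower in TME cells by voom (-0.26 log2, adjusted p = 0.017) and without TME exercised library 10 (-0.28 log2, adjusted p = 0.0152). Col27a1, a fibrillar chain known from cartilage, was at 161, 139, 103 and 114 CPM in sedentary TME cells and 117, 70.2, 66.9 and 122 CPM in exercised ones. It ranged from 73.9 to 125 CPM in cancer libraries (0.25 ± 0.11 log2, adjusted p = 0.0606), and it passed the threshold under 11 alternatives, DESeq2 among them (0.29 log2, adjusted p = 0.0208).

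The ratio of Col5a1 to Col5a2, per kb, therefore had a median of 104 (sedentary) and 208 (exercised) in cancer cells but 5.65 and 5.30 in TME cells. The lowest ratio of a cancer library (51.8) lay above the highest of a TME library (7.01). Col11a1 to Col11a2 gave 30.4 and 35.6 in cancer cells, against 7.52 and 8.61 in TME cells, with the lowest cancer library at 17.7 and the highest TME library at 13.5. Col1a1 to Col1a2 gave medians of 1.81 and 2.50 in cancer cells, against 1.09 and 0.875 in TME cells. These ratios are levels per kb of the transcript with the longest coding sequence. With merged exons the Col5a1 to Col5a2 medians were 149 and 298 in cancer cells, against 8.10 and 7.60 in TME cells, and those of Col1a1 to Col1a2 were 3.81 and 5.26 in cancer cells, against 2.29 and 1.84 in TME cells.

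The other fibrillar chains called higher in TME cells were Col11a2 (1.75 ± 0.27 log2), Col2a1 of cartilage (1.35 ± 0.25 log2) and Col5a3 (0.64 ± 0.11 log2). Their libraries overlap between the sorts. Col24a1 was not called, at 0.32 ± 0.47 log2, with at most 1.03 CPM in any library.

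**Figure D3:**
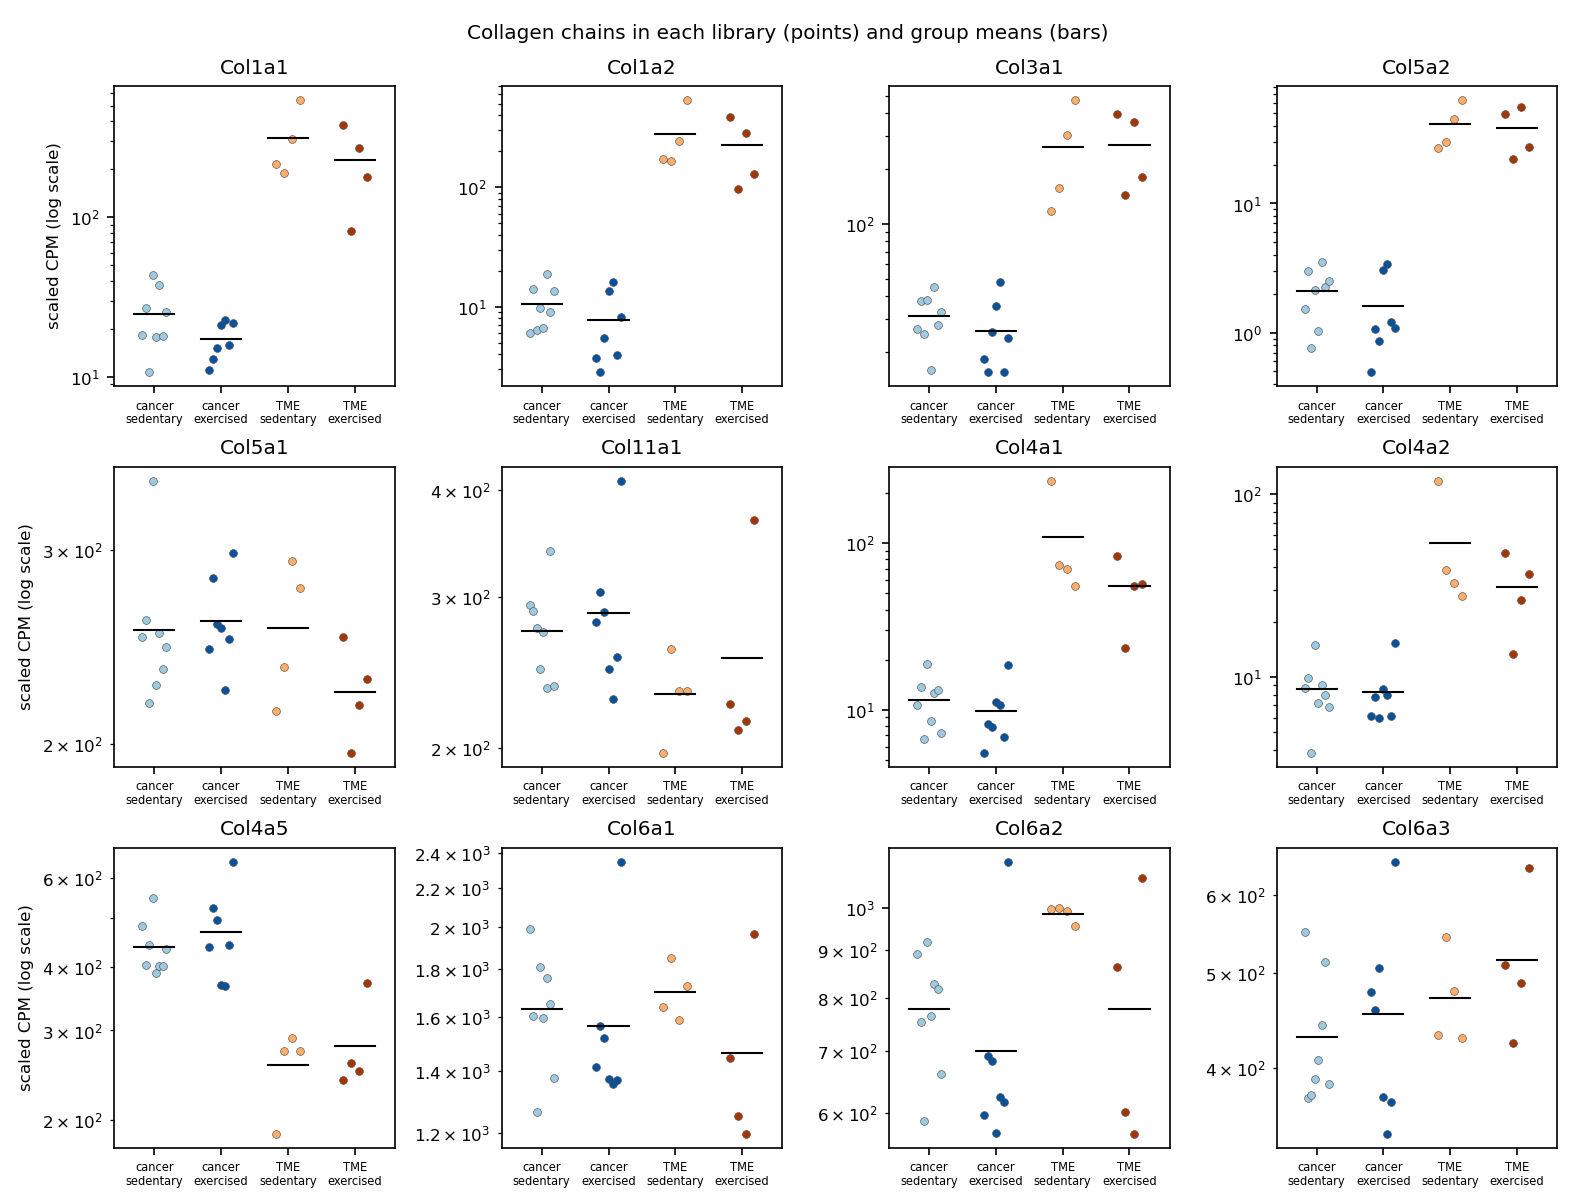
Scaled CPM (log axis, a range of its own in each panel) of 12 collagen chains in every library, with 1 point a library and a bar at the group mean. Col1a1, Col1a2, Col3a1, Col5a2 and Col4a1 separate the sorts completely, Col4a2 nearly so, Col4a5 is lower in TME cells, and Col5a1, Col11a1, Col6a1, Col6a2 and Col6a3 overlap.

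Upstream sequence is shown for fibrillar chains of both patterns, from RefSeq on GRCm38.p6, for Col1a2 and Col3a1 (higher in TME cells) and for Col5a1 and Col11a1 (not called). Capitals mark the GC box GGGCGG, the CCAAT box and the TATA box TATAAA. Each was searched on both strands, so that the reverse complement is marked too, which is CCGCCC for the GC box, while the CCAAT box reversed is ATTGG, and TTTATA stands for the TATA box.
Col1a2, chr6:4505373-4505492, plus strand: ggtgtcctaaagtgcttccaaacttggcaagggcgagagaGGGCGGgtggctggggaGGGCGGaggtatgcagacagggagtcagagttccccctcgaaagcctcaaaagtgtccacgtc
Col3a1, chr1:45311418-45311537, plus strand: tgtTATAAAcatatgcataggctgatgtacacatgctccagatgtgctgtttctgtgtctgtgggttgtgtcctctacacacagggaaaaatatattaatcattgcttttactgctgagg
Col5a1, chr2:27886261-27886380, plus strand: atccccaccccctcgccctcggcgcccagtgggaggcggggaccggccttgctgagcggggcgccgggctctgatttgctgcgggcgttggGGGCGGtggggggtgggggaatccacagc
Col11a1, chr3:114030359-114030478, plus strand: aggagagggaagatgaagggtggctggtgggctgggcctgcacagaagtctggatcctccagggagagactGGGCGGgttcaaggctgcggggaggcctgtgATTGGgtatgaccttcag
The windows lie at unlike distances and end 126 (Col1a2), 1 (Col3a1), 45 (Col5a1) and 62 (Col11a1) bases before the start. In these windows Col1a2 holds 2 GC boxes, Col5a1 holds 1, Col11a1 holds 1 GC box and 1 CCAAT box, and Col3a1 holds 1 TATA box. In the whole 250 bases before the start, Col1a2 and Col11a1 each hold 2 GC boxes and 1 CCAAT box. Over the same length Col5a1 holds 2 GC boxes and Col3a1 holds 1 TATA box. RefSeq promoters were given for 35 of the 44 collagen genes, as 38 windows of 250 bases before a start. A GC box was in 57.9% of those 38 windows and in 32.7% of all 32851 such windows. A CCAAT box was in 34.2% and 33.8%, and a TATA box in 13.2% and 12.4%. A match of letters is a description and not a site of binding.

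In type IV, Col4a1 and Col4a2 were higher in TME cells and Col4a5 was lower, and the other 3 chains were near the limit of detection. Col4a1 was at 238, 73.6, 69.7 and 55.0 CPM in sedentary and 84.4, 23.4, 55.7 and 56.8 CPM in exercised TME cells, against 5.47 to 18.8 CPM in cancer libraries (2.87 ± 0.28 log2, adjusted p = 3.86e-08). Col4a2 was at 119, 38.5, 32.6 and 27.9 CPM in sedentary and 48.0, 13.4, 26.6 and 36.5 CPM in exercised TME cells, against 3.83 to 15.3 CPM in cancer libraries (2.28 ± 0.27 log2, adjusted p = 4.97e-07). Only TME exercised library 8 overlapped the cancer libraries in Col4a2. TME sedentary library 4 was the highest in both chains and also had the highest sum of endothelial markers, 451 CPM, where the next highest TME library had 124 CPM. Without that library 18 collagens were higher and 1 lower, and all 18 of the main calls, both chains included, were among them.

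Col4a5 was at 390.1 to 549 CPM in sedentary cancer cells (median 420.3) and 367 to 647 CPM in exercised cancer cells (median 443). TME libraries held 187, 273, 290.1 and 273 CPM when sedentary and 239, 259, 249.5 and 373 CPM when exercised. It was the only collagen called lower in TME cells (-0.76 ± 0.11 log2, adjusted p = 7.03e-07), and a single TME library, exercised 10, reached into the cancer range. Per kb, Col4a5 exceeded Col4a1 by a median of 39.1 in sedentary and 64.0 in exercised cancer cells, and by 3.98 and 5.59 in TME cells. In TME sedentary library 4 the order was the reverse, with a ratio of 0.793. Col4a3, Col4a4 and Col4a6, the remaining chains, had group means of 0.161 to 0.590 CPM and were not called between the sorts.

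The 6 type IV genes lie in 3 pairs on opposite strands, start to start. In the GENCODE M21 annotation of GRCm38, Col4a1 (chromosome 8, 11198423 to 11312826, minus strand) and Col4a2 (chromosome 8, 11312805 to 11449287, plus strand) overlap by 22 bases at their starts. Col4a6 (chromosome X, 141165403 to 141474076, minus strand) and Col4a5 (chromosome X, 141475385 to 141689234, plus strand) start 1309 bases apart, and Col4a4 and Col4a3 on chromosome 1 start 72 bases apart. The first pair had like levels: the ratio of Col4a1 to Col4a2 per kb had a median of 1.28 in sedentary and 1.18 in exercised cancer cells and 1.94 and 1.71 in TME cells. In the second pair Col4a5 had 210490 counts over all libraries and Col4a6 had 197. Because the pair Col4a1 and Col4a2 overlap, and the strand setting of the counting is not given in the sources used here, reads from the overlap cannot be assigned.

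Sequence before the starts of 2 of these pairs is shown, with the same letters in capitals, to set a pair of like levels beside a pair of unlike levels. The Col4a1 and Col4a2 genes overlap, so that no base of either 250-base promoter is free of annotated exons, and the window of 30 bases around a CCAAT box that is given for each lies within the other gene.
Col4a1, chr8:11312954-11312983, minus strand: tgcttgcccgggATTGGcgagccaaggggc
Col4a2, chr8:11312753-11312782, plus strand: cgcgCCGCCCgaggagctccCCAATttgtt
Col4a5, chrX:141475250-141475369, plus strand: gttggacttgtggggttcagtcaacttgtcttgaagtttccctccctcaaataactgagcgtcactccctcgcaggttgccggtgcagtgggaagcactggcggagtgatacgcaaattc
Col4a6, chrX:141474096-141474215, minus strand: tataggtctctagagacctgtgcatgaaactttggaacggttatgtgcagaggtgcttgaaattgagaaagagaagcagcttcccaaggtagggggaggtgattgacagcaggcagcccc
The Col4a5 and Col4a6 windows of 120 bases hold none of the 3 motifs, while their whole 250-base promoters hold 1 GC box and 1 CCAAT box (Col4a5) and 1 GC box (Col4a6). The Col4a2 window also holds a GC box.

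The abundant chains of type VI were not called between the sorts. Col6a1 was at 1641, 1850.3, 1589.7 and 1729 CPM in sedentary and 1445, 1253, 1197 and 1966 CPM in exercised TME cells. Sedentary cancer cells ranged from 1264 to 1988 CPM (median 1627) and exercised ones from 1354 to 2349 CPM (median 1415), and the difference was -0.02 ± 0.10 log2 (adjusted p = 0.916). Col6a2 was at 998, 999.9, 993 and 956 CPM in sedentary and 863, 601, 569 and 1077 CPM in exercised TME cells, against 588 to 919 CPM and 570.4 to 1123 CPM in cancer cells. Its difference of 0.25 ± 0.12 log2 had an adjusted p of 0.0765 and passed the threshold under 9 alternatives, among them DESeq2 (adjusted p = 0.0265) and the fit without cancer exercised library 10 (adjusted p = 0.00522). Col6a3 was at 432, 543, 479 and 429.7 CPM in sedentary and 509.7, 424, 488 and 638 CPM in exercised TME cells, against 343 to 648 CPM in cancer libraries (0.16 ± 0.10 log2, adjusted p = 0.200).

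The ratio of Col6a1 to Col6a2 per kb was narrow within each group, at 1.90 to 2.15 in sedentary and 2.01 to 2.32 in exercised cancer cells, and at 1.54 to 1.78 and 1.61 to 2.03 in TME cells. With merged exons its medians were 4.01 and 4.23 in cancer cells, against 3.28 and 3.72 in TME cells. These genes are neighbours on the same strand of chromosome 10, with a gap of 85.2 kb. The low-level chain Col6a5 was called higher in TME cells (2.83 ± 0.64 log2, adjusted p = 0.000515) from at most 1.80 CPM in any library.

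Among the fibril-associated collagens, Col14a1 separated the sorts and Col16a1 did not. Col14a1, which binds to fibril surfaces, was at 4.87, 7.23, 9.19 and 22.4 CPM in sedentary and 15.5, 12.6, 18.6 and 4.75 CPM in exercised TME cells, against 0.263 to 2.06 CPM in cancer libraries (3.52 ± 0.30 log2, adjusted p = 6.34e-10). Col16a1 was at 419.5, 428, 367 and 355 CPM in sedentary and 483, 283, 252 and 477 CPM in exercised TME cells. Cancer cells held 290.4 to 512 CPM when sedentary and 275 to 519.7 CPM when exercised (0.14 ± 0.13 log2, adjusted p = 0.386). The type IX chains Col9a2 (1.66 ± 0.40 log2) and Col9a3 (1.09 ± 0.20 log2), known from cartilage, were higher in TME cells. Col9a2 had at most 2.81 CPM in any library. Col9a1, Col12a1 and Col20a1 were not called. Col12a1 was called higher without TME exercised library 8 (0.26 log2, adjusted p = 0.020) and without both TME sedentary libraries of high mitochondrial share (0.28 log2, adjusted p = 0.0498).

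The multiplexins are collagens of vessel and epithelial basement membranes whose ends can be cleaved off as fragments, endostatin in the case of Col18a1. Col15a1 was at 30.9, 11.9, 12.8 and 8.67 CPM in sedentary and 20.1, 6.93, 11.6 and 7.36 CPM in exercised TME cells, and at 0.409 to 1.63 CPM in cancer libraries. Its difference of 4.02 ± 0.25 log2 (adjusted p = 2.56e-12) had the smallest p of the collagens and ranked 39 among all 17503 genes. Col18a1 was at 115, 100.3, 116 and 81.0 CPM in sedentary and 94.6, 60.9, 61.9 and 109 CPM in exercised TME cells, against 67.8 to 114 CPM in cancer libraries (0.10 ± 0.11 log2, adjusted p = 0.466).

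Of the transmembrane collagens, which stay anchored in the cell surface, Col13a1 was at 8.43, 2.01, 1.80 and 2.24 CPM in sedentary and 1.07, 0.0949, 0.753 and 1.06 CPM in exercised TME cells. It had no count in 10 of 15 cancer libraries and 12 counts in all of them together, against 345 counts in the 8 TME libraries. The fitted difference of 5.59 ± 0.59 log2 (adjusted p = 8.90e-09) rests on few counts in cancer cells. It was 6.29 log2 without cancer exercised library 10, which held the highest cancer level (0.362 CPM). Col23a1 was higher in TME cells by 0.85 ± 0.18 log2 (adjusted p = 0.000310), and Col17a1 and Col25a1 were not called. Of the short chain network collagens, Col8a2 was higher in TME cells (2.72 ± 0.41 log2), from at most 3.57 CPM in any library. Col8a1 of vessel walls and Col10a1 of growth plate cartilage were not called. Col7a1, the chain of anchoring fibrils in skin, was not called either (-0.31 ± 0.20 log2), but was called lower in TME cells under 3 alternatives, by voom (-0.47 log2, adjusted p = 0.0348), with the replicate block (-0.31 log2, adjusted p = 0.0442) and without TME exercised library 7 (-0.47 log2, adjusted p = 0.0288). Likewise Col17a1 was called lower without TME exercised library 10 (-0.67 log2, adjusted p = 0.0226) and Col8a1 in the contrast within exercised mice (-0.53 log2, adjusted p = 0.020).

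Genes that act on collagens were read from lists of their modifying enzymes, processing enzymes, receptors and binding partners. Of 19 enzymes and chaperones of the endoplasmic reticulum, 5 were higher and 5 lower in TME cells, close to the shares of all genes tested (25.3% higher and 27.3% lower). The procollagen chaperone Serpinh1 was level between the sorts at 477 ± 78.8 CPM in sedentary cancer cells and 512 ± 83.0 CPM in sedentary TME cells (SD, 0.05 ± 0.10 log2 SE, adjusted p = 0.684). Plod2, a lysyl hydroxylase, was lower in TME cells (-0.78 ± 0.07 log2), as was Ppib, a prolyl isomerase (-0.61 ± 0.11 log2). Fkbp10, a chaperone of type I procollagen, was higher (2.18 ± 0.22 log2), as was the prolyl hydroxylase family member P3h3 (1.47 ± 0.20 log2).

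Of 12 tested processing and cross-linking enzymes, 6 were higher and 1 lower in TME cells, beside the same 25.3% and 27.3% of all genes, which also stand beside the counts that follow. The lysyl oxidase family members Loxl2 (3.24 ± 0.24 log2) and Loxl1 (4.34 ± 0.46 log2) and the procollagen peptidase Adamts2 (1.94 ± 0.18 log2) were higher, while Lox itself, at 83.6 ± 11.3 CPM in sedentary cancer cells and 74.7 ± 21.3 CPM in sedentary TME cells, was not called. Of 9 tested receptors, 3 were higher and 5 lower. Lair1, an inhibitory receptor of leukocytes, was higher in TME cells (3.71 ± 0.29 log2), and Ddr2 (-0.61 ± 0.10 log2), Itga1 (-0.87 ± 0.14 log2) and Itga2 (-1.42 ± 0.23 log2) were lower. Of 15 small leucine-rich and other matrix proteins, 13 were higher in TME cells and none was lower, with Nid2 (4.82 ± 0.35 log2) and Nid1 (2.13 ± 0.18 log2) of basement membranes and Aspn (3.55 ± 0.32 log2) and Fbln1 (3.67 ± 0.35 log2) of the stroma having the smallest p.

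The part that other cells carried into a sort has in these values was not tested. Beside the collagens that separate the sorts, the endothelial sum was 11.3 to 15.5 CPM in sedentary cancer and 92.5 to 451 CPM in sedentary TME libraries, and the leukocyte sum 22.7 to 61.7 against 485 to 705 CPM. All 10 endothelial and 9 of 10 leukocyte markers were called higher in TME cells. The other sums overlapped between sedentary cancer and sedentary TME libraries. They were 772 to 937 against 765 to 1014 CPM for fibroblast markers and 195 to 335 against 266 to 345 CPM for pericyte and smooth muscle markers. Epithelial markers summed to 322 to 539.9 against 302 to 523 CPM.

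**Figure D4:**
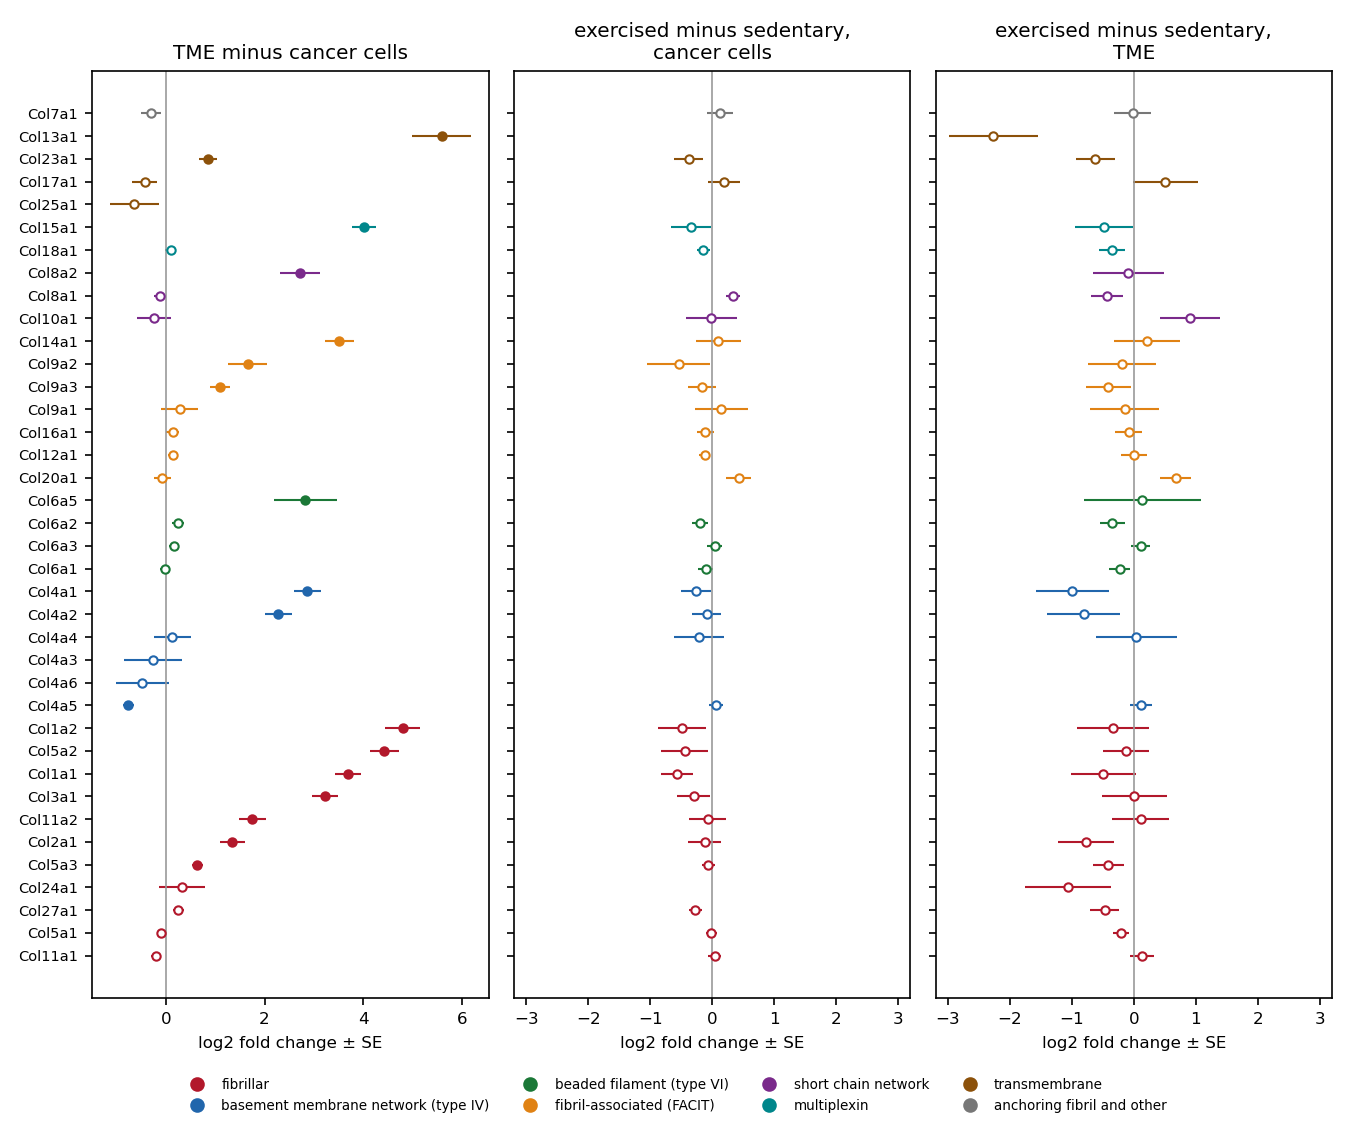
Log2 fold change ± SE of each tested collagen gene between the sorts (left), under exercise in cancer cells (middle) and under exercise in TME cells (right), ordered by class, with filled points for genes past an adjusted p of 0.05. The left panel holds 18 filled points, of which Col4a5 alone is below 0, and the exercise panels, on an axis of their own, hold none.

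Under exercise, no collagen gene passed the threshold in cancer cells, where 0 of 15096 genes did (0%). At an unadjusted p under 0.05 there were 4 of 31 collagens (12.6% of all genes tested). DESeq2 called 161 genes and none of the collagens. Of the 31 values, 22 were below 0, and the median was -0.11 log2 against -0.01 over all genes.

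In cancer cells Col8a1 was at 32.7 to 55.7 CPM when sedentary (median 37.7) and 44.1 to 61.8 CPM when exercised (median 50.4), with ranges that overlap (0.34 ± 0.11 log2, unadjusted p = 0.00415, adjusted p = 0.210 by edgeR's quasi-likelihood test). Col20a1, a fibril-associated chain, was at 4.16 to 10.3 CPM and 6.28 to 13.2 CPM (0.43 ± 0.20 log2, adjusted p = 0.381), and the third gene above 0, Col17a1 of hemidesmosomes, was at 0.19 ± 0.26 log2. Below 0, Col27a1 was at 75.2 to 125 CPM when sedentary (median 104) and 73.9 to 98.1 CPM when exercised (median 86.9), a value of -0.27 ± 0.10 log2 (adjusted p = 0.298). Col1a1 followed at -0.57 ± 0.26 log2 (adjusted p = 0.393) and Col23a1 at -0.38 ± 0.23 log2 (adjusted p = 0.510).

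Cancer exercised library 10 stood apart in several collagens. Its Col6a1 was 2349 CPM against 1354 to 1564 CPM in the other exercised cancer libraries, and its Col6a2 was 1123 against 570.4 to 691 CPM. With it the exercise effect was -0.10 ± 0.12 log2 for Col6a1 and -0.19 ± 0.13 log2 for Col6a2, and without it -0.22 (adjusted p = 0.263) and -0.34 (adjusted p = 0.122). Col10a1 moved most, from -0.01 to -0.61 log2 (adjusted p = 0.282), with 16.4 CPM in that library and 3.14 to 4.12 CPM in the other exercised ones. No collagen passed the threshold without it.

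In TME cells, too, 0 of 35 collagens passed the threshold under exercise, where 0 of 16273 genes did (0%). There were 2 at an unadjusted p under 0.05, against 8.44% of all genes tested. DESeq2 called 41 genes and none of the collagens. Of the 35 values, 23 were below 0, and the median was -0.19 log2 against 0.01 over all genes.

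Col13a1 had the lowest p in TME cells. Its values, given above, do not overlap: the 4 sedentary libraries lie at 1.80 CPM and above and the 4 exercised ones at 1.07 CPM and below, a separation in this direction found in 1.78% of all genes tested. The effect was -2.27 ± 0.72 log2 (unadjusted p = 0.00925, adjusted p = 0.586 by edgeR's quasi-likelihood test), and -1.44 log2 (adjusted p = 0.852) without TME sedentary library 4. Col20a1 was at 4.03, 7.23, 5.47 and 5.37 CPM in sedentary and 10.7, 10.2, 6.23 and 8.83 CPM in exercised libraries (0.68 ± 0.25 log2, adjusted p = 0.586). These overlap by 1 exercised library. Col23a1 (-0.62 ± 0.31 log2) and Col27a1 (-0.47 ± 0.23 log2) came next below 0, and Col10a1 (0.91 ± 0.48 log2) and Col17a1 (0.51 ± 0.52 log2) above 0. The values of Col10a1 and Col17a1 were 0.17 and -0.08 log2 without TME exercised library 10.

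The abundant stromal chains differed more between TME libraries than between treatments. The effect was -0.49 ± 0.53 log2 for Col1a1, -0.34 ± 0.58 for Col1a2, 0.01 ± 0.53 for Col3a1, -0.12 ± 0.37 for Col5a2 and -0.48 ± 0.47 for Col15a1. Col4a1 and Col4a2 had -0.99 ± 0.59 and -0.81 ± 0.59 log2 (adjusted p = 0.629 and 0.689), and -0.26 and -0.08 log2 without TME sedentary library 4. All 10 endothelial markers were below 0 under exercise in TME cells, with none called, and their median was -1.18 log2. Without TME sedentary library 4 that median was -0.29 log2, with 8 of 10 below 0. The 9 tested leukocyte markers were all above 0 (median 1.16 log2, and 1.20 without that library). Of 10 fibroblast markers, 5 were above and 5 below 0 (median -0.00 log2, and -0.13 without that library). Of 4 tested epithelial markers, 1 was above and 3 were below 0 (median -0.24 log2). No marker of these lists was called either. The leukocyte sum was 2122 and 2256 CPM in TME exercised libraries 8 and 9, against 348 and 558 CPM in the other exercised ones. In library 8 the values of Col1a1, Col1a2, Col4a1, Col4a2 and Col15a1 were the lowest of the TME libraries, at 82.1, 95.6, 23.4, 13.4 and 6.93 CPM. Exercised library 9, with the higher leukocyte sum, held 272, 282, 55.7, 26.6 and 11.6 CPM of the same genes. The sum of 10 pericyte and smooth muscle markers was 279, 266, 319 and 345 CPM in sedentary and 235, 176, 201 and 229 CPM in exercised TME libraries. These do not overlap, a separation in this direction found in 1.78% of all single genes tested. Most of that sum came from Pdgfrb, with means of 259.7 ± 35.6 CPM (SD) in sedentary and 177 ± 21.5 CPM in exercised TME cells. Pdgfrb was as abundant in sedentary cancer cells (262 ± 44.4 CPM), while Rgs5 had 8.05 and 8.15 CPM in sedentary and exercised TME cells. Of the 10 pericyte and smooth muscle markers, 8 were below 0 (median -0.47 log2, and -0.25 without TME sedentary library 4) and none was called. The part of these marker levels in the collagen values was not tested.

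**Figure D5:**
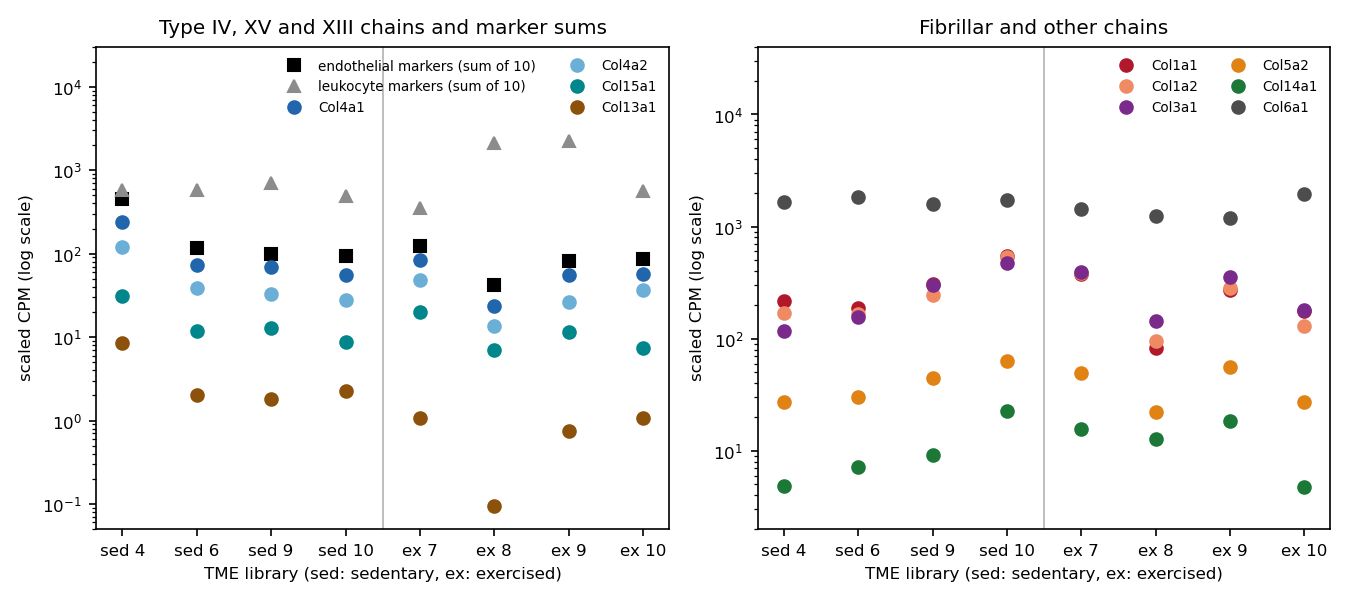
Scaled CPM (log axes) in each of the 8 TME libraries, with sedentary libraries left and exercised libraries right of the grey line. The left panel shows the summed endothelial and leukocyte markers with Col4a1, Col4a2, Col15a1 and Col13a1. The endothelial sum and these 4 genes are highest in sedentary library 4, the leukocyte sum is highest in exercised libraries 8 and 9, and the right panel shows Col1a1, Col1a2, Col3a1, Col5a2, Col14a1 and Col6a1.

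The exercise effects of the sorts were compared directly, as the TME effect minus the cancer effect. No collagen passed the threshold among 38, and 0 of 17503 genes did (0%). At an unadjusted p under 0.05 there were 3 collagens, all below 0, against 3.34% of all genes tested in that direction. DESeq2 called 2 genes and no collagen. Col8a1 differed by -0.80 ± 0.24 log2 (unadjusted p = 0.00291, adjusted p = 0.530 by edgeR's quasi-likelihood test). It was at 31.4, 40.0, 54.4 and 64.9 CPM in sedentary and 43.6, 22.5, 40.6 and 36.5 CPM in exercised TME cells, which overlap, and its effect there was -0.43 ± 0.26 log2, against 0.34 ± 0.11 in cancer cells. The adjusted p was 0.0639 to 0.923 over the alternatives.

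Col13a1 differed by -4.28 ± 1.36 log2 (adjusted p = 0.543), a value that rests on a few counts in cancer cells and was -2.87 log2 without cancer exercised library 10. Col24a1 differed by -1.97 ± 0.96 log2 (adjusted p = 0.660), from at most 1.03 CPM in any library. The 3 collagens of smallest p above 0 were Col10a1 (0.90 ± 0.69 log2), Col4a6 (0.88 ± 1.07 log2) and Col20a1 (0.23 ± 0.33 log2).

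Among the genes that act on collagens, none was called under exercise in either sort or in the difference. In cancer cells P3h1, a prolyl 3-hydroxylase, had -0.30 ± 0.08 log2 (adjusted p = 0.128), Postn, a matrix protein that binds type I collagen, had -0.44 ± 0.13 log2 (adjusted p = 0.208), and Ddr2, a receptor for fibrillar collagens, had 0.34 ± 0.11 log2 (adjusted p = 0.242). Lair1 had 0.89 ± 0.25 log2 in cancer cells (adjusted p = 0.176) and 1.67 ± 0.64 log2 in TME cells (adjusted p = 0.586). The leukocyte sum ranged over 43.4 to 120.3 CPM in exercised and 22.7 to 61.7 CPM in sedentary cancer libraries. In TME cells Fkbp10 had -0.94 ± 0.35 log2 and Nid1 had -0.77 ± 0.34 log2 (adjusted p = 0.586 for both).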

How the data were processed

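PolyA RNA of sorted cells was sequenced in 23 libraries. RNA was taken with Trizol, and libraries came from a KAPA mRNA-Seq kit, per the labels' protocols. The authors deposited raw read counts per gene symbol, made with STAR and featureCounts on mm10 per the submitters' processing notes. Tool versions, the annotation and whether strand was used are not given in those sources. Without a known strand setting, 18 collagen genes with an antisense neighbour in GENCODE M21 may share reads with it.

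edgeR 4.0.16 (R 4.3.3) was fitted to the counts of all genes kept by filterByExpr, with TMM factors and the robust quasi-likelihood test (two-sided). Benjamini-Hochberg adjusted p-values were called under 0.05. The comparison of the sorts and the difference of the exercise effects used all 23 libraries, and each exercise effect used the libraries of its sort. The tests between the sorts and under exercise, but not the difference, were run on simulated counts with 200 changed genes. Recovery of changed genes was required between the sorts and in cancer cells, but not in TME cells. False calls were not limited. Levels per kb use the transcript with the longest coding sequence. The members, lists and tests were chosen with earlier results of these data known. The genes named are a fixed set of major chains, the 10 highest per kb in either sort, and in each comparison up to 8 per direction of smallest p past the threshold or, with none, the 3 smallest. Col2a1, Col5a3, Col6a5, Col7a1, Col8a2, Col9a1, Col9a2, Col9a3, Col11a2, Col12a1 and Col25a1 and the examples from other lists were chosen after their values were seen. Alternatives were DESeq2 1.42.0, limma 3.58.1 voom, RLE size factors, other filters, mitochondrial genes left out, all libraries in 1 fit, the replicate block and each library left out. The sorts were also compared within each treatment, as contrasts in the fit of all 23 libraries. Leaving out both TME sedentary libraries of high mitochondrial share, and marker lists without TME sedentary library 4, were added after seeing the data.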

Additional observations from a re-analysis of the deposited data

Results flagged for a closer look

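Among the named collagens, 100 sets of levels (25 genes in 4 groups) were read by Dixon's criterion, on log2 of CPM plus 0.1. In 14 of them a library had a gap to the next that was large against the range of its group. Chance gives about 5% for a single set, but the sets share the same 23 libraries and are not independent. The share over all genes is not given, so the 14 cannot be read as a trait of collagens. Many of the 25 genes were also named for their levels or contrasts in these same libraries. Cancer exercised library 10 was high in 6 of them. It had 16.4 CPM of Col10a1 (others 3.14 to 4.12), 0.362 CPM of Col13a1 (others 0 to 0.0795), 519.7 CPM of Col16a1 (others 275 to 350.4), 15.3 CPM of Col4a2 (others 5.98 to 8.61) and 2349 CPM of Col6a1 (others 1354 to 1564). It also had 1123 CPM of Col6a2 (others 570.4 to 691). Of these genes, TME exercised library 10 was the highest of its group in Col10a1 (13.8 CPM), Col6a1 (1966 CPM) and Col6a2 (1077 CPM). It was not the highest in Col13a1 (1.06 CPM), Col16a1 (477 CPM) and Col4a2 (36.5 CPM).

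TME exercised library 10 was high in Col11a1 at 369 CPM (others 209.5 to 225) and low in Col23a1 at 2.79 CPM (others 3.32 to 3.39). TME sedentary library 4, which had the highest mitochondrial share, was high in Col13a1 at 8.43 CPM (others 1.80 to 2.24) and low in Col4a5 at 187 CPM (others 273 to 290.1). TME sedentary library 10 was low in Col6a2 at 956 CPM (others 993 to 999.9). Cancer sedentary library 5 was high in Col16a1 at 512 CPM (others 290.4 to 377) and in Col5a1 at 347 CPM (others 218 to 259), and cancer sedentary library 10 was low in Col10a1 at 1.34 CPM (others 4.14 to 8.10).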

How the results depend on the processing

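The count of collagens called between the sorts was 16 to 21 under every alternative, against 18 as reported, and all 18 were among the calls except with a mean CPM of at least 1, which tested 29 collagens and kept 14 of them. No collagen was called under exercise or in the difference under any alternative. Over all genes, exercise in cancer cells gave 161 calls with DESeq2, 197 with voom, 28 with no filter and 1 with all 23 libraries in 1 fit. Exercise in TME cells gave 41 with DESeq2 and 6 with no filter, and the difference gave 2 with DESeq2, 40 with voom and 14 with the replicate block. Leaving out 1 library gave 18 to 21 collagens between the sorts. Over all genes it gave 8599 to 9427 between the sorts, 0 to 43 under exercise in cancer cells (43 without sedentary library 4), 0 under exercise in TME cells and 0 to 52 in the difference (52 without TME exercised library 7). The causes were not tested.

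Of 3712 values of single collagens under an alternative, none lost its call or reversed. The threshold was passed by 29 where the reported value did not, all between the sorts. Among them was Col8a1 in the contrast within exercised mice (-0.53 log2, adjusted p = 0.020). Another 232 uncalled values changed sign. Col13a1 was 7.72 log2 higher in TME cells in the contrast within sedentary mice and 3.45 in that within exercised mice. The replicate block gave 21 collagens between the sorts. The labels do not say whether libraries of the sorts with the same replicate number come from 1 mouse. Such libraries had correlations of -0.06 to 0.243 (median 0.05), against -0.21 to 0.166 (median -0.019) for other pairs. Of 7 TME libraries, 2 correlated best with their own number. With 7 pairs and ranges that overlap, these values cannot decide whether the libraries are paired. Depth limits Col13a1, Col24a1, Col25a1, Col4a3, Col4a4, Col4a6 and Col6a5, which had 145 to 357 counts over all libraries. Col9a2 and Col8a2 had 429 and 472.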
